A study of Mus musculus with 18 samples.

Results

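The integrin subunits and laminin chains are the adhesion receptors of the cell surface and a main protein of the basement membrane they hold. Members were taken by symbol from the deposited table, as every Itga or Itgb gene with a number or letter and every Lama, Lamb or Lamc gene with a number. This gave 37 of the 24419 symbols, 26 integrin subunits and 11 laminin chains. The 5 leukocyte integrins Itgal, Itgam, Itgax, Itgb2 and Itga4 were kept apart from the other 21 integrin subunits. The study followed acute myocardial infarction (AMI) in male C57BL/6 mice, 8 weeks old, made by tying off the left anterior descending artery of the heart. Polyadenylated RNA was sequenced from 3 mice per time point (10 min, 1 h, 6 h, 24 h or 72 h with the vessel tied) and from 3 mice labelled control, called sham in the study's text and below. All 18 mice were anaesthetised with pentobarbital, the labels give no genetic change, and each mouse gave 1 library. Labels name the tissue only as heart. The study's text speaks of infarcted myocardium and of left ventricle. A time point holds different mice from the others, so no mouse was followed over time.

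An integrin is a pair of 1 alpha and 1 beta subunit that spans the membrane and ties the extracellular matrix, or a counter-receptor on another cell, to the actin skeleton. The beta subunit Itgb1 pairs with most alpha subunits, while Itgb2 is made by leukocytes and pairs with Itgal, Itgam or Itgax. A laminin is a trimer of 1 alpha, 1 beta and 1 gamma chain, and laminin sheets surround each cardiomyocyte and lie under the endothelium. Cardiomyocytes hold on to laminin through the alpha subunit Itga7 together with Itgb1.

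Levels are given as FPKM, fragments per kilobase of transcript scaled to the library's fragments, which allows levels of different genes to be set side by side. The summed FPKM of a library lay between 542400 and 600500. The libraries' relative depth, read from their lowest values, lay between 0.813 and 1.319 of the first sham library. It was 1.3, 1.319 and 1.244 at 72 h, where the other 2 sham libraries had 0.976 and 1.111. The 72 h readings rested on only 29, 43 and 50 genes. The files give no read counts, so the depth itself is unknown. A gene entered the tests when 1 or more of the 18 mice reached 1 FPKM. Of the 37 members 32 did so, 24 of them already in sham mice and 8 only in AMI mice (Itga2, Itga2b, Itga4, Itgal, Itgam, Itgax, Itgb7 and Itgb8). The 5 members left out stayed below 1 FPKM in every mouse. Itgad reached at most 0.147 FPKM, Itgae 0.279, Itga10 0.621, Lama1 0.335 and Lamc3 0.571, and Lama1 was listed at 0 in 8 mice. Fold changes are differences of log2(FPKM + 1) between groups of 3 mice with their standard error (SE), which understate the change of genes near or below 1 FPKM. A member is called where the limma adjusted p over all genes tested was under 0.05. With 3 mice against 3, an exact permutation test of 1 gene cannot give a p under 0.1.

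In sham mice the most abundant integrin subunit was Itgb1, with 253, 255 and 270 FPKM in the 3 sham mice, which was 62.3% ± 0.455 (SD, n = 3) of all integrin FPKM. Itga7 followed with 38.7 ± 0.288 FPKM (SD, n = 3), then Itgb5 with 31.0 ± 0.630, Itga6 with 24.3 ± 2.23 and Itga9 with 16.9 ± 0.603, and none of these neighbours overlapped. Itga1 (11.0 ± 0.619 FPKM) and Itga5 (10.6 ± 1.07 FPKM), the next in order, did overlap. Among laminins, Lamc1 (504 ± 23.9 FPKM), Lama5 (350 ± 13.5) and Lamb2 (311 ± 11.0) stood first, followed by Lama4 (59.4 ± 4.62). Lama2, Lamb1 and Lamb3 lay together at 31.0 ± 3.12, 28.4 ± 2.17 and 25.2 ± 2.18 FPKM, and Lama2 overlapped with Lamb1, and Lamb1 with Lamb3. Lama2, the heart and muscle chain of the laminin around muscle fibres, was therefore at a lower level in these samples than Lama4 and Lama5, the alpha chains of vessel basement membranes. By 72 h the order of the integrin subunits had changed. Itgb2, at 2.51 FPKM on average in sham, came next after Itgb1 and Itgb5 at 63.0 FPKM, while Itga6 (40.8 ± 4.07), Itga5 (34.5 ± 5.57) and Itga7 (32.7 ± 3.82) came after it, and each of these 3 overlapped with the next.

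No member was called at 10 min or 1 h. At 10 min limma called 0.248% of all genes tested higher and 0.0978% lower, and at 1 h 0.669% higher and 0.0526% lower. At an unadjusted p under 0.05, 10 of the 32 members passed at 10 min, 9 of them higher, and 8 passed at 1 h, 5 of them higher. At that threshold 1955 of 13297 genes tested passed at 10 min and 1673 of 13300 at 1 h, in either direction. The smallest adjusted p at 10 min belonged to Lamb3, with 18.6, 18.5 and 18.6 FPKM against 27.6, 23.4 and 24.6 in sham (log2 difference -0.42, SE 0.0706, limma adjusted p = 0.0681). Itgb3 had 2.44, 1.85 and 2.38 FPKM at 10 min against 1.03, 1.18 and 1.42 in sham (log2 difference 0.54, SE 0.107, limma adjusted p = 0.0912). For both genes the 10 min mice did not overlap with sham, yet neither passed.

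At 6 h, 8 of 32 members were higher and 6 lower than in sham, 25% and 18.8% of the members tested, where 11.6% and 16.8% of all genes tested were called higher and lower. At 24 h, 12 were higher and 7 lower, against 26.2% and 11.4% of all genes. At 72 h, 21 members (65.6%) were higher and 5 (15.6%) lower, against 53.1% and 24.2% of all genes. Of the 32 tested, 8 had passed the filter only through AMI mice, and all 8 are among the 21, so that a difference was built into their being tested. Of the 24 that passed in sham, 13 (54.2%) were higher and 5 (20.8%) lower at 72 h. The median log2 fold change over the 32 members was -0.04, 0.15 and 0.77 at 6 h, 24 h and 72 h, beside -0.08, 0.13 and 0.29 over all genes tested. The member medians include the 8 that passed only through AMI mice, so they carry the same built-in difference. Since the median of all genes moved by over 0.1 at 24 h and 72 h, calls were also made after median-of-ratios scaling, which brought that median to 0.02 and 0.04. Among all genes called, the share called higher moved from 40.86% to 56.65% at 6 h, from 69.75% to 52.25% at 24 h and from 68.7% to 52.46% at 72 h with this scaling. With that scaling the members counted 8 higher and 4 lower at 6 h, 12 and 7 at 24 h, then 20 and 9 at 72 h. Of 13321 genes tested at 6 h, 1977 were then higher and 1513 lower. The counts of all genes were 2535 and 2317 of 13327 at 24 h, then 5243 and 4752 of 13329 at 72 h. Some of the member counts were smaller with fewer sham mice. Without 1 of the 3 sham mice, whichever it was, 5 members were called higher at 6 h, 1 to 3 lower at 6 h, and 1 or 2 lower at 24 h. The map of fold changes shows the tested members by role and time.

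**Figure D1:**
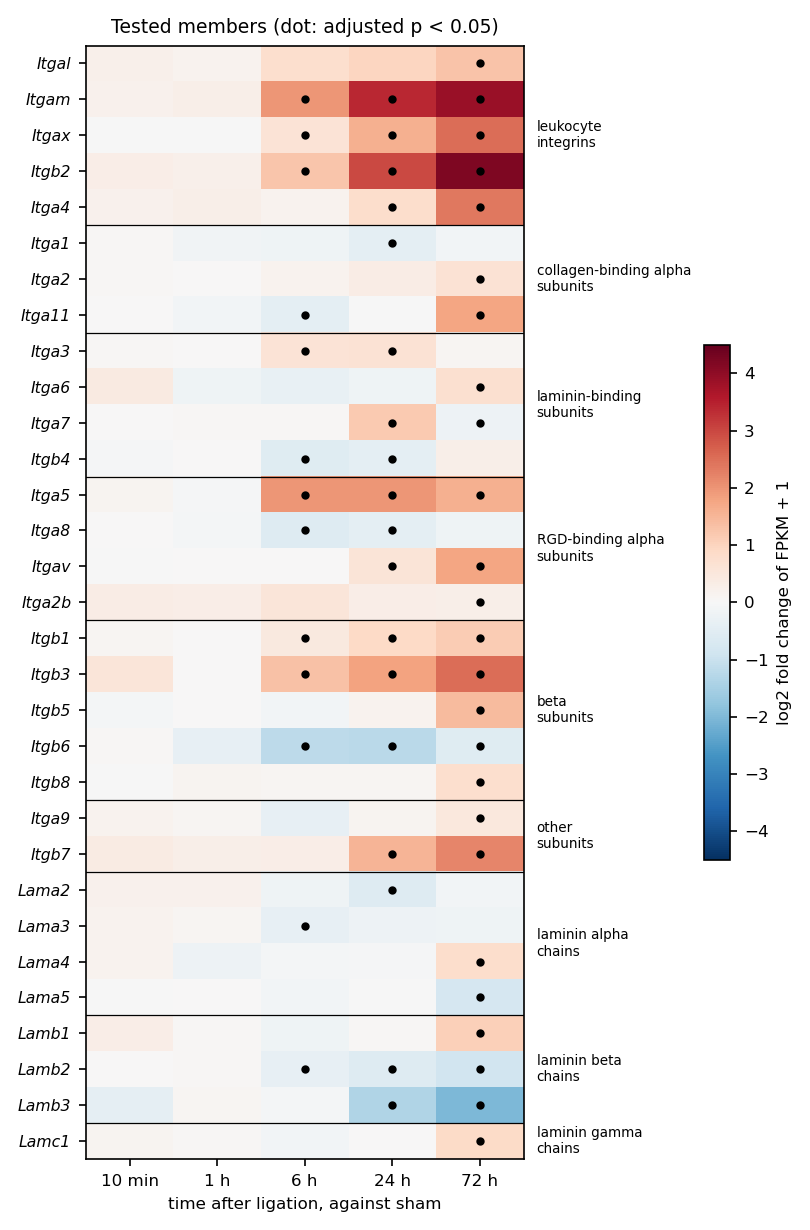
Log2 fold change of FPKM + 1 against sham (colour, red higher and blue lower) for tested members in rows, grouped by role, at the 5 time points in columns. A dot marks a limma adjusted p under 0.05. No dot stands at 10 min or 1 h, and dots are most frequent at 72 h, where the value for Itgb2 is 4.19.

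Between time points, 4 members were higher and 1 lower at 24 h than at 6 h, where 12.5% of all genes were higher and 1.94% lower. At 72 h against 24 h, 14 members were higher and 3 lower (29.7% and 13.5% of all genes). At 72 h against 6 h, 20 were higher and 6 lower (50.3% and 16.7% of all genes). After median-of-ratios scaling these counts were 2 and 1, 12 and 4, and 16 and 7, and the share of all calls that were higher moved from 86.58% to 52.27%, from 68.78% to 53.42% and from 75.07% to 51.05%. Of all genes, 403 and 368 of 13328, 3144 and 2741 of 13330, and 4245 and 4070 of 13331 were then higher and lower. Without the third 24 h mouse 6 members were lower at 72 h than at 24 h, with Lamb2 and Lamb3 among those added. The comparison of 24 h with 6 h was the least stable. Its 4 higher members were Itga7, Itga11, Itgax and Itgb7, and all 4 were lost without the second or the third 6 h mouse, or without the second 24 h mouse. Without the third 24 h mouse Itga7 and Itgb7 remained. Its 1 lower member, Lamb3, was lost without any 1 of the 3 6 h mice, or without the second 24 h mouse. These comparisons share their mice with those against sham and are given as their own values.

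More leukocyte integrins were called at each later time point. The count called higher was 3 of 5 at 6 h, 4 of 5 at 24 h and all 5 by 72 h, and none was lower at any time. Of all genes tested, 11.6%, 26.2% and 53.1% were called higher at these times. Their median log2 fold change was 0.77, 1.61 and 2.53, against -0.08, 0.13 and 0.29 over all genes. Except for Itgb2, these genes passed the filter only through AMI mice, so that a difference was built into their being tested. Itgb2 (chr10:77530252-77565708, plus strand, mm10), the shared beta subunit of the leukocyte family, had 2.25, 2.67 and 2.60 FPKM in sham. It had 12.2, 4.28 and 7.29 FPKM at 6 h, 19.1, 17.2 and 56.6 at 24 h, then 58.2, 70.5 and 60.4 at 72 h. Each mouse from 6 h on stood above every sham mouse, the third 24 h mouse stood about level with the 72 h mice, and the ratio of the 72 h to the sham mean was 25.1. The log2 fold change was 1.25 at 6 h (SE 0.295, limma adjusted p = 0.0209), 2.98 at 24 h (SE 0.411, adjusted p = 0.00502) and 4.19 at 72 h (SE 0.0913, adjusted p = 1.11e-08). The 6 h call was lost without any 1 of the 3 sham mice (adjusted p up to 0.0733).

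Itgam (chr7:128062640-128118491, plus strand), which with Itgb2 forms the complement receptor Mac-1 of neutrophils, monocytes and macrophages, had 0.682, 0.774 and 0.663 FPKM in sham. It had 10.4, 2.67 and 6.17 FPKM at 6 h, 12.6, 8.45 and 44.98 at 24 h, then 20.8, 30.1 and 22.1 at 72 h. All 9 late mice stood above sham, and the highest value of all 18 was that of the third 24 h mouse. Against sham this gave a log2 fold change of 1.97 at 6 h (SE 0.358, limma adjusted p = 0.00865), 3.41 at 24 h (SE 0.528, adjusted p = 0.00629) and 3.88 at 72 h (SE 0.131, adjusted p = 5.1e-08). Per unit of Itgb2, Itgam stood at 0.283 ± 0.0250 in sham (ratio of FPKM, SD, n = 3), at 0.775 ± 0.130 at 6 h, 0.649 ± 0.152 at 24 h and 0.384 ± 0.0382 at 72 h. The 6 h and 24 h ratios all lay above those of the 72 h and sham mice. Itgal per Itgb2 ran from 0.146 ± 0.0414 in sham and 0.176 ± 0.0833 at 6 h to 0.0595 ± 0.0138 at 24 h and 0.0374 ± 0.00575 at 72 h. The alpha partners of Itgb2 thus did not keep 1 ratio to it.

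Itgax (chr7:128129547-128150657, plus strand), the CD11c subunit of dendritic cells and some macrophages, had 0.170, 0.0856 and 0.0951 FPKM in sham. It had 1.33, 0.386 and 0.568 FPKM at 6 h, 1.98, 2.09 and 3.29 at 24 h, then 4.33, 6.55 and 5.68 at 72 h, with no overlap between any of these groups. Its difference from sham on the log2 scale was 0.62 at 6 h (SE 0.182, limma adjusted p = 0.0411), 1.61 at 24 h (SE 0.156, adjusted p = 0.00205) and 2.53 at 72 h (SE 0.129, adjusted p = 4.37e-07). The 6 h call was lost without any 1 of the sham mice or without the third 6 h mouse (adjusted p up to 0.115). Itga4, which pairs with Itgb1 to bind Vcam1 and fibronectin or with Itgb7 to bind Madcam1, had 0.661, 0.673 and 0.698 FPKM in sham. It had 1.305, 0.519 and 0.824 FPKM at 6 h, 1.83, 1.52 and 2.38 at 24 h, then 6.74, 7.90 and 8.24 at 72 h. The 6 h mice overlapped with sham. Itga4 was called at 24 h (log2 fold change 0.78, SE 0.128, limma adjusted p = 0.00692) and 72 h (2.36, SE 0.0909, adjusted p = 9.73e-08), and it was higher at 72 h than at 24 h (1.58, SE 0.142, adjusted p = 0.000197).

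Itgal, the LFA-1 alpha subunit of lymphocytes and other leukocytes, had 0.228, 0.489 and 0.398 FPKM in sham. It had 3.30, 0.591 and 0.863 FPKM at 6 h, 1.27, 0.749 and 3.87 at 24 h, then 1.94, 3.10 and 2.11 at 72 h. Every late mouse exceeded sham, but at 6 h and 24 h a single mouse stood far above the other pair. Itgal was called at 72 h alone (log2 fold change 1.29, SE 0.141, limma adjusted p = 4.05e-05), while the values at 6 h were 0.77 (SE 0.342, adjusted p = 0.127) and at 24 h 0.97 (SE 0.351, adjusted p = 0.0645). Together the 5 genes made up 1.05% ± 0.0915 of all integrin FPKM in sham (SD, n = 3), 3.09% ± 1.38 at 6 h, 7.12% ± 4.36 at 24 h and 10.7% ± 0.0837 at 72 h. The third 24 h mouse had 12.1% and the others 5.07% and 4.15%.

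**Figure D2:**
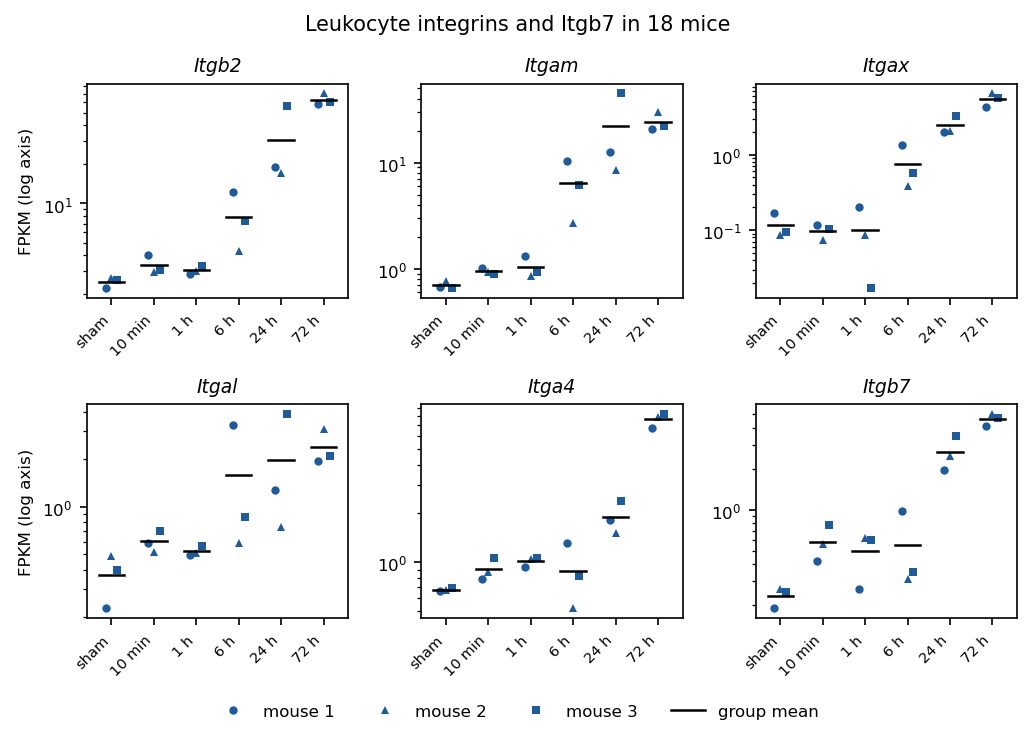
FPKM on a log axis of the 5 leukocyte integrins and Itgb7 in each of 18 mice, by time after ligation. Symbols mark mouse 1, 2 and 3 of each group, which are different animals in each group, and bars mark group means. The third 24 h mouse has 56.6 FPKM of Itgb2 where the other 24 h mice have 19.1 and 17.2.

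Markers of leukocytes moved with these genes. In bulk tissue more cells of a type and more RNA per cell cannot be told apart. The summed FPKM of 5 leukocyte markers (Ptprc, Laptm5, Coro1a, Cd53 and Tyrobp) was 15.7 to 18.1 in sham, 74.7, 26.7 and 41.1 in the 3 mice at 6 h, 85.4, 81.8 and 194 at 24 h, then 291 to 339 at 72 h. The same mouse was highest in this sum and in summed leukocyte integrins at 6 h (the first) and at 24 h (the third). Summed leukocyte integrin per summed marker FPKM was 0.256 ± 0.0119 in sham (SD, n = 3), 0.360 ± 0.0380 at 6 h, 0.456 ± 0.105 at 24 h and 0.337 ± 0.0595 at 72 h. The 5 neutrophil markers summed to 2.32 to 4.99 in sham, 997, 116 and 375 at 6 h, 209, 42.6 and 965 at 24 h, then 49.6 to 60.2 at 72 h. The 6 macrophage markers summed to 183 to 213 in sham, 176 to 209 at 6 h, 290 to 356 at 24 h and 1746 to 2244 at 72 h. The 5 T cell markers summed to 0.496 to 0.978 in sham and 2.60 to 4.39 at 72 h, and the 4 B cell markers to 1.60 to 2.35 and 5.64 to 7.03. Of the T cell markers only Cd4 was tested, at 0.395 ± 0.0760 FPKM in sham and 1.72 ± 0.168 at 72 h (SD, n = 3, log2 fold change 0.96, limma adjusted p = 1.77e-05), while Cd3e, Cd3d, Cd3g and Cd8a were below 1 FPKM in all 18 mice. Both B cell markers tested were higher at 72 h, Cd79a from 0.818 ± 0.224 to 1.97 ± 0.426 FPKM (SD, n = 3, 0.71, limma adjusted p = 0.00106) and Cd79b from 0.633 ± 0.190 to 3.54 ± 0.454 FPKM (1.48, adjusted p = 5.56e-06), and Cd79b also at 24 h (0.65, adjusted p = 0.0316). Ms4a1 was below 1 FPKM in all mice. Cd4 and Cd79b passed the filter only through AMI mice, so that a difference was built into their being tested. The part of these cells in the rise was not tested.

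Genes outside the 5 with a leukocyte role differed among themselves. Itgb7, which pairs with Itga4 or Itgae on lymphocytes and mast cells, had 0.190, 0.265 and 0.252 FPKM in sham and 4.13, 5.05 and 4.74 at 72 h. The groups were far apart (log2 fold change 2.19, SE 0.0923, limma adjusted p = 1.53e-07), and Itgb7 was also called at 24 h (1.54, SE 0.159, adjusted p = 0.00241), with 1.97, 2.47 and 3.48 FPKM. It passed the filter only through AMI mice. Itgae stayed at or under 0.279 FPKM, with its highest values of 0.217, 0.279 and 0.272 FPKM in the 72 h mice. Itgad, the CD11d subunit, never passed 0.147 FPKM and its highest value was in a 1 h mouse. Itgam, Itgax and Itgad lie next to each other on chromosome 7 in 1 orientation, with 11.1 kb between Itgam and Itgax and 3.72 kb between Itgax and Itgad (chr7:128154376-128223816), so genes side by side had 72 h means of 24.4, 5.52 and 0.0459 FPKM. Counting Itgad, Itgae and Itgb7 as leukocyte integrins raised their share at 72 h from 10.7% to 11.2%.

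The promoters of the leukocyte alpha subunits that rose are shown with those of Itgb7, to set the letters before their starts side by side. Of the 37 members 23 matched RefSeq's promoter table (build GRCm38.p6, the build mm10), with 26 starts between them, and Itgal and Itgb2 were not among these. The 250 bases before each start are printed 5′ to 3′ on the gene's strand. Capitals mark the letters GAGGAA (a core bound by ETS factors such as PU.1), TGTGGT (RUNX factors) and TGANTCA (AP-1), searched on both strands, so that a match on the other strand reads TTCCTC or ACCACA.
Itgam, chr7:128062390-128062639, plus strand: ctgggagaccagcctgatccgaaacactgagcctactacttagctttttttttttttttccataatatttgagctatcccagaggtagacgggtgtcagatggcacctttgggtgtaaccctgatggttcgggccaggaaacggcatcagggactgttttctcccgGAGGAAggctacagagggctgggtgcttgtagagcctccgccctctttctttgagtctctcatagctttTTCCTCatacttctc
Itgax, chr7:128129300-128129549, plus strand: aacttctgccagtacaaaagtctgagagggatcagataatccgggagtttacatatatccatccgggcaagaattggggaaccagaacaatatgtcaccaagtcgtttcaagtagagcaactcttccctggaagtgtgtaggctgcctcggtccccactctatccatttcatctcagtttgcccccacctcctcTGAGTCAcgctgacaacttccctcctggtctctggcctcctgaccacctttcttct
Itga4, chr2:79255176-79255425, plus strand: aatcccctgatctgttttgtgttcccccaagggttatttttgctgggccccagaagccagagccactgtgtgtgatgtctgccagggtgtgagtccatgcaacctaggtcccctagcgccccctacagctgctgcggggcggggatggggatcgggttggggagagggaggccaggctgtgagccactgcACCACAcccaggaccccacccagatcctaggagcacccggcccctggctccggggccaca
Itgb7, chr15:102231936-102232185, minus strand: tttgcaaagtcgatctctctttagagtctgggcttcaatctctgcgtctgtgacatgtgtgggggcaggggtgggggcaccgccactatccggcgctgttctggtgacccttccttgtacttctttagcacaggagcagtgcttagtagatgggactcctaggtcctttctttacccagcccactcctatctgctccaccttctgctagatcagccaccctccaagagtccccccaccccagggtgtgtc
Itgam held GAGGAA at 84 bases before its start and again on the other strand at 15 bases before it. Itgax held 1 TGANTCA match at 56 bases, Itga4 held 1 TGTGGT match on the other strand at 60 bases, and the Itgb7 window held none of the 3. Over all 32851 promoters of this length, 23.3% held GAGGAA, 14% TGTGGT and 6.75% TGANTCA. Of the 26 member promoters 13 held GAGGAA, 2 TGTGGT and 1 TGANTCA. Matches of such short words are a description of the letters, and no match was common to the 4 genes.

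Among the alpha subunits that bind RGD, the short peptide motif of fibronectin and vitronectin, Itga5 was the early riser. Itga5, the fibronectin receptor subunit (chr15:103344286-103366763, minus strand), had 11.4, 9.40 and 11.1 FPKM in sham. It had 66.0, 48.4 and 28.2 FPKM at 6 h, 34.0, 37.5 and 69.0 at 24 h, then 30.7, 40.9 and 31.9 at 72 h. Every mouse from 6 h on lay above sham, with a wide spread at 6 h and 24 h. The log2 fold change was 1.98 at 6 h (SE 0.273, limma adjusted p = 0.00333), 1.97 at 24 h (SE 0.253, adjusted p = 0.00413) and 1.60 at 72 h (SE 0.118, adjusted p = 3.57e-06). Its share of all alpha subunit FPKM was 9.29% ± 0.753 in sham (SD, n = 3), 30.7% ± 7.94 at 6 h and 15.9% ± 0.427 at 72 h. Itgav, the vitronectin receptor subunit, followed later. It had 5.70, 6.60 and 6.42 FPKM in sham, 6.86, 5.04 and 6.99 at 6 h, 8.13, 9.15 and 12.3 at 24 h, then 21.9, 28.7 and 21.8 at 72 h. Its 6 h mice overlapped with sham, and its log2 fold change was 0.00 at 6 h (SE 0.133, limma adjusted p = 0.997), 0.57 at 24 h (SE 0.153, adjusted p = 0.0274) and 1.78 at 72 h (SE 0.113, adjusted p = 1.51e-06). The 24 h call was lost without any 1 of the sham mice (adjusted p up to 0.101).

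Itga8, a subunit of smooth muscle and fibroblasts, was lower at 6 h, with 0.521, 0.290 and 0.415 FPKM against 0.803, 1.12 and 1.35 in sham (log2 fold change -0.57, SE 0.121, limma adjusted p = 0.0152). At 72 h it had 0.635, 1.03 and 0.763 FPKM, which overlapped with sham, but median-of-ratios scaling and quantile normalization each called it lower there. Its 6 h call was lost without the second or the third sham mouse (adjusted p up to 0.0563). Its 24 h call (-0.44, limma adjusted p = 0.0437), at 0.661, 0.599 and 0.346 FPKM, was lost without any 1 of the sham mice or without the second or the third 24 h mouse. Itga2b, the platelet alpha subunit, which passed the filter only through AMI mice, had 3.02 FPKM in the first 6 h mouse and 0.600 and 0.479 in the others, against 0.485, 0.446 and 0.415 in sham. Its 72 h values of 0.762, 0.690 and 0.762 FPKM were called (log2 fold change 0.26, SE 0.0823, limma adjusted p = 0.0173), but the call was lost without the third sham mouse (adjusted p = 0.0594) and after median-of-ratios scaling, and under quantile normalization the sign turned (log2 fold change -0.11, adjusted p = 0.183).

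The beta partners of these subunits rose at different times. Itgb1 (chr8:128685654-128733200) had 253, 255 and 270 FPKM in sham, 398, 311 and 341 at 6 h, 468, 460 and 512 at 24 h, then 507, 666 and 554 at 72 h. The groups of sham, 6 h and 24 h did not overlap. Against sham this gave a log2 fold change of 0.43 at 6 h (SE 0.0983, limma adjusted p = 0.0196), 0.88 at 24 h (SE 0.0839, adjusted p = 0.00194) and 1.14 at 72 h (SE 0.105, adjusted p = 1.43e-05), and the 6 h call was lost without any 1 of the sham mice (adjusted p up to 0.0779). Its share of integrin FPKM stayed between 55.9% and 66.5% in all mice from 6 h on. Itgb3, the partner of Itgav and of the platelet subunit Itga2b, had 1.03, 1.18 and 1.42 FPKM in sham, 7.41, 3.37 and 3.54 at 6 h, 5.61, 4.25 and 12.6 at 24 h, then 10.1, 14.3 and 10.5 at 72 h. All 9 late mice exceeded all sham mice. Its log2 fold change was 1.32 at 6 h (SE 0.246, limma adjusted p = 0.00952), 1.82 at 24 h (SE 0.328, adjusted p = 0.00903) and 2.50 at 72 h (SE 0.133, adjusted p = 5.44e-07).

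Platelet markers were read beside Itgb3. The sum of Pf4, Ppbp, Gp9, Gp1bb and Gp6 was 16.9 to 20.1 FPKM in sham, 48.0, 17.2 and 27.7 at 6 h, 58.2, 45.4 and 118 at 24 h, then 190 to 209 at 72 h, while Gp6 was below 1 FPKM in all 18 mice. The second 6 h mouse lay within the sham range of this sum, while its Itgb3 was above sham. Of the 4 platelet markers tested, 1 was called higher at 6 h and 3 at both 24 h and 72 h. The shares of all genes called higher were 11.6%, 26.2% and 53.1%. The median log2 fold change of these 4 markers at 72 h was 2.11, beside 0.29 over all genes. The part of platelets in the rise of Itgb3 was not tested. Itgb5, a further partner of Itgav, had 31.1, 30.4 and 31.6 FPKM in sham, 26.8, 31.7 and 26.9 at 6 h, 35.7, 31.9 and 37.1 at 24 h, then 75.8, 85.3 and 92.9 at 72 h. Only the 72 h mice stood well apart, and only that comparison with sham was called (log2 fold change 1.42, SE 0.0809, limma adjusted p = 8.38e-07). At 72 h against 24 h Itgb5 was higher by 1.25 (SE 0.115, limma adjusted p = 0.000216) and Itgav by 1.22 (SE 0.175, adjusted p = 0.00156).

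Itgb6 and Itgb8, the beta subunits that with Itgav hold latent TGF-beta, went apart. Itgb6 had 6.46, 5.08 and 6.00 FPKM in sham, 2.02, 1.68 and 2.33 at 6 h, 2.58, 2.99 and 0.814 at 24 h, then 3.85, 3.74 and 3.39 at 72 h, with every late mouse under sham. Its difference from sham on the log2 scale was -1.19 at 6 h (SE 0.125, limma adjusted p = 0.00136), -1.20 at 24 h (SE 0.290, adjusted p = 0.0198) and -0.55 at 72 h (SE 0.0968, adjusted p = 0.000781). The 24 h call was lost without any 1 of the sham mice (adjusted p up to 0.0747). Itgb8 had 0.0775, 0.177 and 0.127 FPKM in sham and 0.929, 1.04 and 0.706 at 72 h (log2 fold change 0.74, SE 0.0997, limma adjusted p = 0.000147). It stayed at or under 0.391 FPKM in every mouse of the other groups, so it passed the filter through 1 mouse at 72 h, and it was not tested where the mean FPKM had to reach 1.

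**Figure D3:**
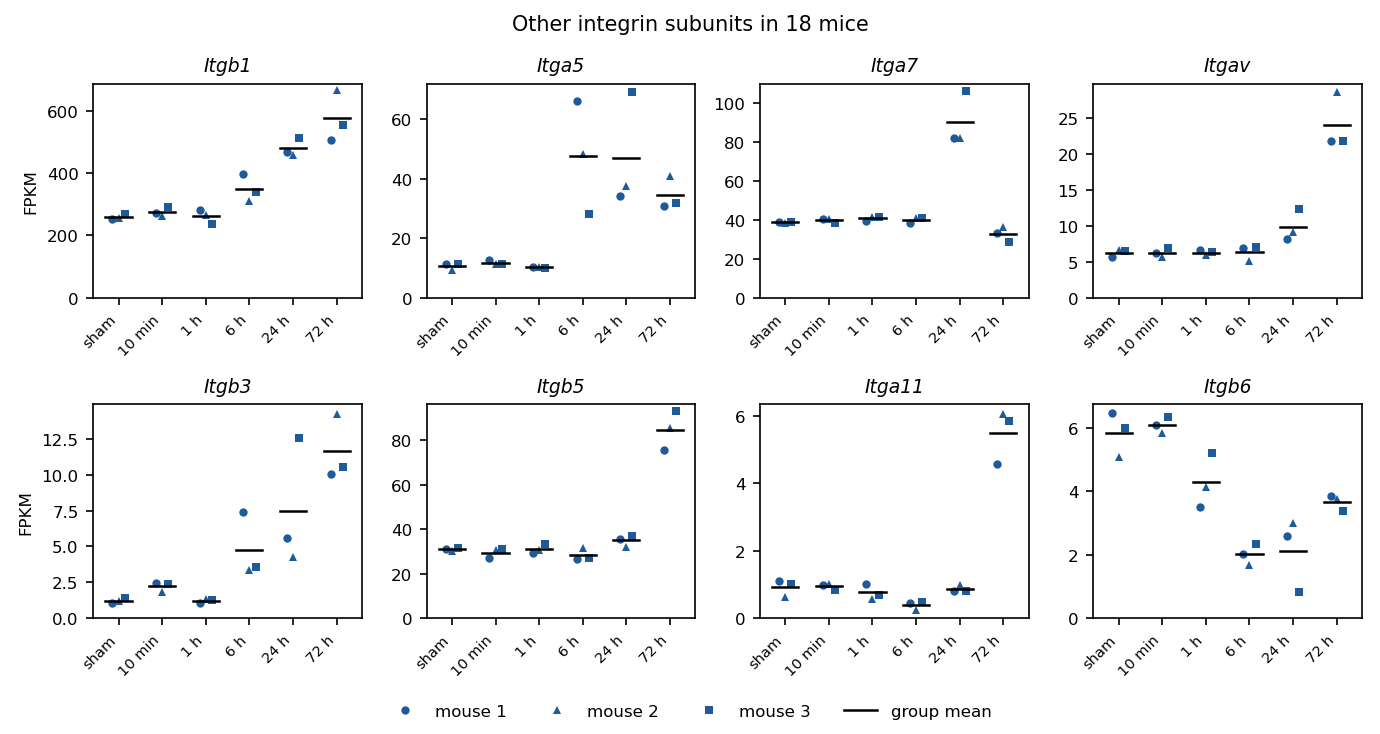
FPKM of 8 integrin subunits outside the leukocyte integrins in each of 18 mice, by time after ligation, on linear axes from 0. Symbols mark the 3 mice of a group and bars the group mean. Itga5 reaches 66.0 FPKM at 6 h, Itga7 has 82.0 to 106 FPKM at 24 h and 28.6 to 36.1 at 72 h, and Itgb5 and Itgav stand apart from sham at 72 h.

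The laminin-binding subunits did not move together. Itga7 (chr10:128933818-128958282), the alpha subunit of the muscle laminin receptor, had 38.8, 38.4 and 39.0 FPKM in sham and 38.4, 40.9 and 40.6 at 6 h, which overlapped. At 24 h it had 82.0, 82.0 and 106 FPKM, more than in any mouse of the other groups, and at 72 h 33.3, 36.1 and 28.6, less than in any sham mouse. The log2 fold change was 0.04 at 6 h (SE 0.0673, limma adjusted p = 0.647), 1.18 at 24 h (SE 0.114, adjusted p = 0.00205) and -0.24 at 72 h (SE 0.0868, adjusted p = 0.0291). From 24 h to 72 h the level fell by 1.43 on the log2 scale (SE 0.142, adjusted p = 0.000308). The 72 h call against sham was lost without any 1 of the sham mice or without the third 72 h mouse (adjusted p up to 0.0863). The 24 h rise against sham was called without any 1 of the 6 mice. The sum of 6 cardiomyocyte markers was 50270 to 53740 FPKM in sham, 41350 to 51390 at 6 h, 32080 to 40890 at 24 h and 18690 to 23300 at 72 h. The part of cardiomyocytes in the levels of Itga7 was not tested. Itga7 was 33.9% ± 1.09 of alpha subunit FPKM in sham (SD, n = 3), 39.7% ± 3.26 at 24 h and 15.2% ± 1.48 at 72 h.

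Itga3, an alpha subunit of epithelial laminin receptors, was raised at 6 h and 24 h only, with 1.61, 1.69 and 1.86 FPKM in sham, 3.50, 3.33 and 2.61 at 6 h, 2.64, 3.18 and 4.20 at 24 h, then 1.82, 2.301 and 1.67 at 72 h. Against sham this gave a log2 fold change of 0.60 at 6 h (SE 0.114, limma adjusted p = 0.00976) and 0.66 at 24 h (SE 0.146, adjusted p = 0.0157), and the 24 h call was lost without the first or the second sham mouse (adjusted p up to 0.0663). At 72 h Itga3 was lower than at 24 h (-0.56, SE 0.160, limma adjusted p = 0.0262) and than at 6 h (-0.50, SE 0.133, adjusted p = 0.01), and the former call was lost without the second 24 h mouse or without the first or the third 72 h mouse (adjusted p up to 0.0988). Itgb4, the hemidesmosome subunit, had 1.62, 1.21 and 1.66 FPKM in sham and 0.827, 0.760 and 0.597 at 6 h (log2 fold change -0.53, SE 0.109, limma adjusted p = 0.0134). It had 2.29, 1.77 and 1.84 FPKM at 72 h, above the sham mice without passing the test (0.25, SE 0.111, adjusted p = 0.0663). The direction at 72 h depended on the processing, as 1 fit of all 18 mice called Itgb4 higher and quantile normalization called it lower. Its 6 h call was lost without the first or the third sham mouse (adjusted p up to 0.0578). The 24 h values of 0.655, 0.958 and 0.958 FPKM were also called lower (-0.43, limma adjusted p = 0.0355), which was lost without any 1 of the sham mice or without the first or second 24 h mouse. Its partner Itga6, which also pairs with Itgb1 on endothelium, had 24.4, 22.0 and 26.4 FPKM in sham and 37.7, 45.4 and 39.2 at 72 h, with no overlap (log2 fold change 0.72, SE 0.0937, limma adjusted p = 0.000118).

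Of the collagen-binding alpha subunits, Itga11, which binds fibrillar collagen on fibroblasts, changed direction. It had 1.10, 0.614 and 1.02 FPKM in sham, 0.445, 0.255 and 0.471 at 6 h, 0.807, 0.984 and 0.817 at 24 h, then 4.57, 6.05 and 5.83 at 72 h. The 6 h mice lay below all sham mice and the 72 h mice above all others. Its difference from sham on the log2 scale was -0.45 at 6 h (SE 0.126, limma adjusted p = 0.0347) and 1.76 at 72 h (SE 0.133, adjusted p = 4.08e-06), and the 72 h level exceeded the 6 h level by 2.22 (SE 0.13, adjusted p = 3.42e-06). The 6 h call was lost without the first or the third sham mouse, or without the first or second 6 h mouse (adjusted p up to 0.116). The sum of 5 fibroblast markers was 204 to 213 FPKM in sham, 159 to 215 at 6 h, 197 to 230 at 24 h and 1265 to 1595 at 72 h. All 5 were called higher at 72 h (53.1% of all genes), with a median log2 fold change of 1.42. At 24 h 2 were higher and 1 lower (26.2% and 11.4% of all genes). The part of fibroblasts in the rise of Itga11 was not tested. Itga2, a collagen receptor subunit of platelets and epithelium, had 0.0546, 0.0559 and 0.121 FPKM in sham and 0.447, 1.04 and 0.614 at 72 h (log2 fold change 0.65, SE 0.132, limma adjusted p = 0.00189). It too passed through 1 mouse at 72 h and was not tested where the mean had to reach 1. Its neighbour Itga1, 21 kb away on chromosome 13 in the same orientation, had 10.4, 10.8 and 11.7 FPKM in sham and 8.00, 12.8 and 9.37 at 72 h, with overlap. Both median-of-ratios scaling and quantile normalization called Itga1 lower at 72 h. Itga1 was called lower at 24 h, at 8.04, 8.12 and 7.52 FPKM (-0.43, SE 0.0887, limma adjusted p = 0.0131), and that call was lost without any 1 of the sham mice (adjusted p up to 0.0628). Itga9, whose ligands include tenascin C and Vcam1, had 16.3, 16.8 and 17.5 FPKM in sham and 23.3, 26.4 and 22.2 at 72 h (log2 fold change 0.48, SE 0.0782, limma adjusted p = 0.000485), and under quantile normalization this call was lost (adjusted p = 0.071).

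Laminin chains were called in both directions. Of the 9 tested, 1 was higher and 2 lower at 6 h (11.6% and 16.8% of all genes), 1 and 3 at 24 h (26.2% and 11.4%), then 4 and 3 at 72 h (53.1% and 24.2%). After median-of-ratios scaling the counts were 1 and 0 at 6 h, 1 and 3 at 24 h, then 4 and 5 at 72 h. Under this scaling all genes counted 1977 higher and 1513 lower of 13321 at 6 h. They counted 2535 and 2317 of 13327 at 24 h, then 5243 and 4752 of 13329 at 72 h. Lamc1, Lama5, Lamb2 and Lama4 stood first in that order in sham and at 72 h. Over the 9 tested chains the median log2 fold change at 72 h was -0.14, under the 0.29 of all genes. Among the alpha chains, Lama5, the main alpha chain here, had 354, 361 and 335 FPKM in sham, 325, 329 and 307 at 6 h, 348, 370 and 311 at 24 h, then 206, 230 and 190 at 72 h. Only the 72 h mice stood well below sham (log2 fold change -0.75, SE 0.0854, limma adjusted p = 5.45e-05). Lama4, the endothelial alpha chain that is also made by other mesenchymal cells, had 59.9, 54.5 and 63.7 FPKM in sham and 98.1, 123 and 92.4 at 72 h, with no overlap (log2 fold change 0.80, SE 0.111, limma adjusted p = 0.000189). Lama4 per Lama5 was 0.170 ± 0.0196 in sham (ratio of FPKM, SD, n = 3) and 0.498 ± 0.0301 at 72 h. Lama4 made up 13.5% ± 1.29 of alpha chain FPKM in sham and 30.4% ± 1.26 at 72 h, and Lama5 79.2% ± 1.68 and 61.1% ± 1.14. The sum of 5 endothelial markers was 465 to 508 FPKM in sham and 409 to 515 at 72 h. Of these 5, 2 were called lower and none higher at 72 h (24.2% and 53.1% of all genes), and 4 were lower after median-of-ratios scaling (4752 of 13329 genes). The part of endothelium in the rise of Lama4 was not tested.

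Lama2, the alpha chain of muscle basement membrane, was lowest at 24 h, with 23.2, 20.8 and 16.8 FPKM against 27.4, 32.2 and 33.3 in sham (log2 fold change -0.59, SE 0.137, limma adjusted p = 0.0175). At 72 h it had 28.8, 30.8 and 24.4 FPKM, which overlapped with sham, but median-of-ratios scaling and quantile normalization each called it lower there. The 24 h call was lost without the second or the third sham mouse (adjusted p up to 0.0703). Lama3, the epithelial alpha chain, was lower at 6 h, with 0.981, 0.811 and 0.718 FPKM against 1.19, 1.49 and 1.42 in sham (-0.37, SE 0.0982, limma adjusted p = 0.031), and this call was lost without any 1 of the sham mice, without the second or the third 6 h mouse, and after median-of-ratios scaling (adjusted p up to 0.105).

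**Figure D4:**
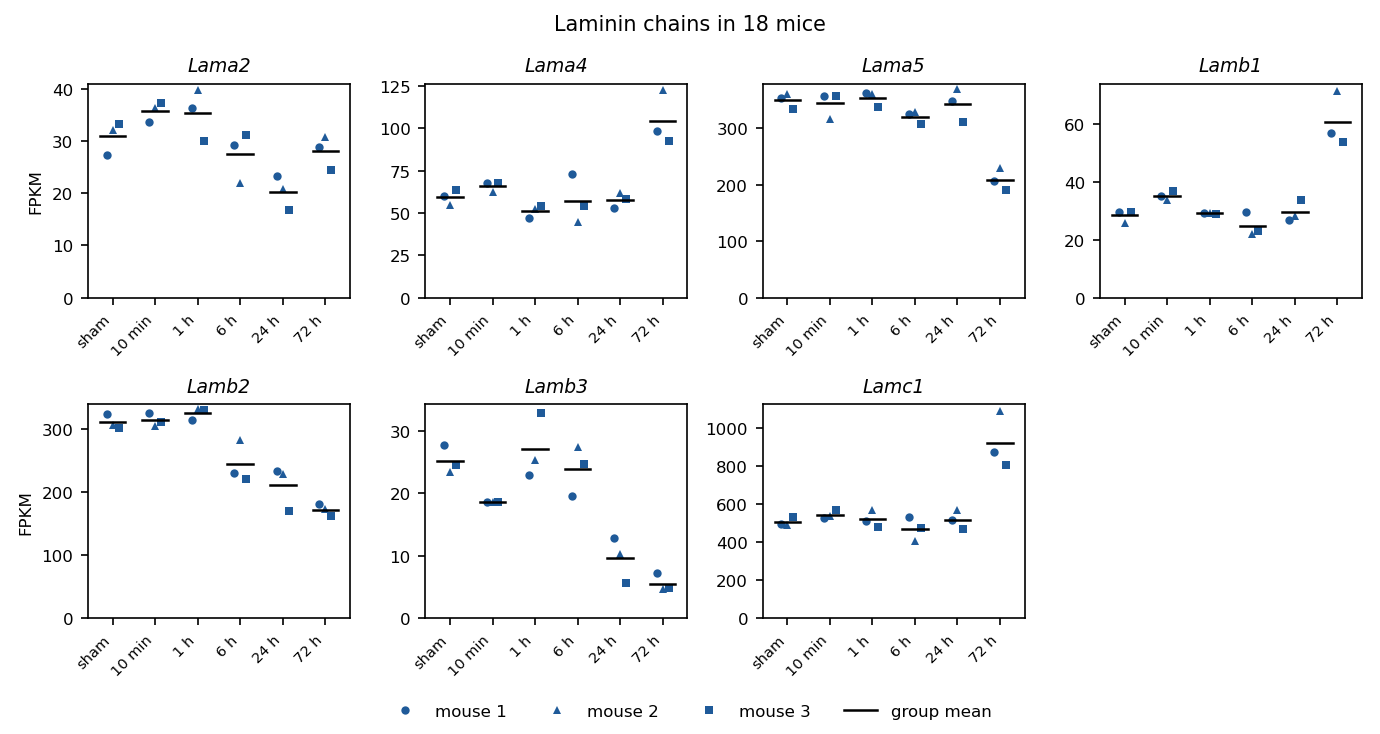
FPKM of 7 laminin chains in each of 18 mice, by time after ligation, on linear axes from 0, with symbols for the 3 mice of a group and bars for the mean. Lama5, Lamb2 and Lamb3 are lowest at 72 h, and Lama4, Lamb1 and Lamc1 are highest there.

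Among the beta chains the levels of Lamb2 and Lamb1 came closer by 72 h, with Lamb2 still first. Lamb2, a chain of mature muscle and vessel laminins, had 324, 308 and 303 FPKM in sham, 230, 282 and 221 at 6 h, 234, 230 and 171 at 24 h, then 181, 174 and 162 at 72 h, with each of these 9 mice below sham. Its log2 fold change was -0.36 at 6 h (SE 0.101, limma adjusted p = 0.0373), -0.57 at 24 h (SE 0.133, adjusted p = 0.0182) and -0.85 at 72 h (SE 0.0715, adjusted p = 8.13e-06). The 6 h call was lost without any 1 of the sham mice, without the first or the third 6 h mouse, and after median-of-ratios scaling, and the 24 h call without any 1 of the sham mice. Lamb1, the widely made chain of developing and vascular laminins, had 29.6, 25.9 and 29.8 FPKM in sham, 29.6, 22.1 and 23.1 at 6 h, 26.8, 28.1 and 33.6 at 24 h, then 56.9, 71.7 and 53.8 at 72 h. It was called at 72 h alone (log2 fold change 1.06, SE 0.111, limma adjusted p = 3.18e-05). Lamb1 per Lamb2 was 0.0913 ± 0.00706 in sham (ratio of FPKM, SD, n = 3) and 0.352 ± 0.0520 at 72 h, and the share of Lamb1 in beta chain FPKM was 7.79% ± 0.540 and 25.4% ± 2.85.

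Lamb3, known as the beta chain of the epithelial laminin, gave the largest fall of any member. It had 27.6, 23.4 and 24.6 FPKM in sham, 19.5, 27.4 and 24.7 at 6 h, 12.9, 10.3 and 5.64 at 24 h, then 7.18, 4.68 and 4.78 at 72 h. The 6 h mice overlapped with sham, and the 24 h and 72 h mice lay below it. The log2 fold change was -0.08 at 6 h (SE 0.132, limma adjusted p = 0.65), -1.37 at 24 h (SE 0.256, adjusted p = 0.00986) and -2.02 at 72 h (SE 0.142, adjusted p = 2.71e-06). Its alpha partner in that laminin, Lama3, stayed at or under 1.83 FPKM in every mouse. The mesothelial markers, the 1 epithelial list examined, summed to 7.05 to 17.2 FPKM in sham, 3.11 to 11.9 at 24 h and 23.3 to 72.1 at 72 h.

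**Figure D5:**
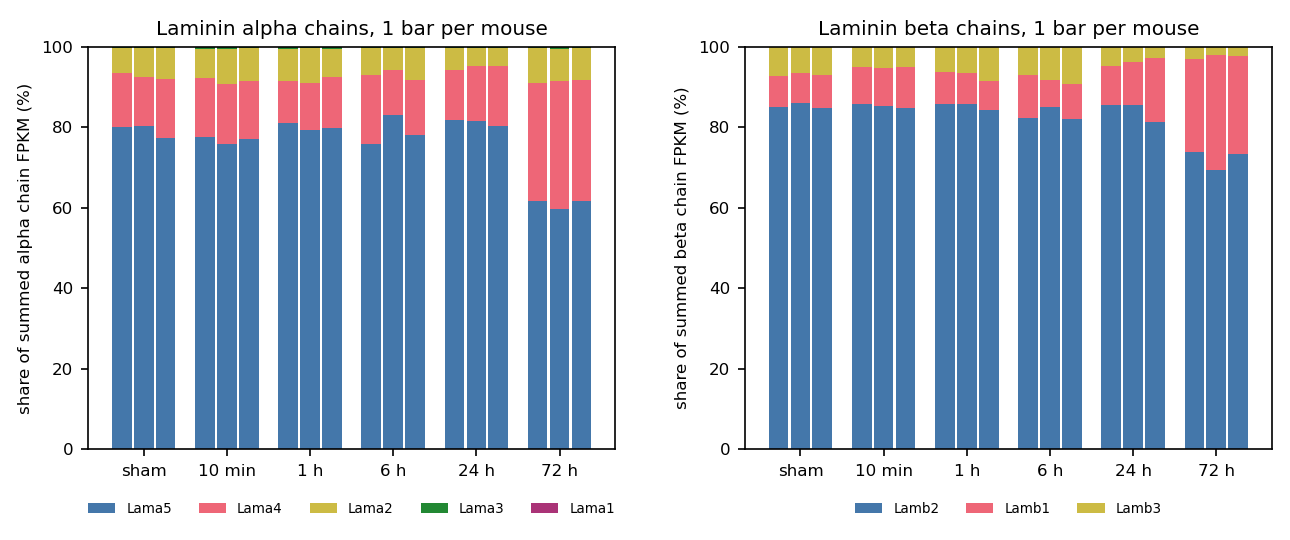
Share of each chain in the summed FPKM of laminin alpha chains (left) and beta chains (right), in percent, with 1 stacked bar per mouse and 3 mice per group. At 72 h Lama5 takes 59.8 to 61.7% of alpha chain FPKM where sham mice have 77.3 to 80.4%, and Lamb1 takes 23.2 to 28.6% of beta chain FPKM where sham mice have 7.26 to 8.34%.

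Lamc1 (chr1:153218922-153332786, minus strand), the gamma chain of nearly all laminins, had 493, 488 and 532 FPKM in sham, 530, 404 and 473 at 6 h, 513, 567 and 468 at 24 h, then 876, 1091 and 803 at 72 h. It was called at 72 h alone (log2 fold change 0.86, SE 0.119, limma adjusted p = 0.000176). Its 72 h mice lay above every mouse of the groups named, and the 6 h and 24 h mice overlapped with sham.

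Other genes of the adhesion pathway were read from 3 lists. Of 21 tested adaptors, which join integrin tails to actin or signal from them, 7 were higher and 2 lower at 6 h, 13 and 2 at 24 h, then 13 and 5 at 72 h, where 11.6% and 16.8%, 26.2% and 11.4%, then 53.1% and 24.2% of all genes were called higher and lower. After median-of-ratios scaling the adaptors counted 7 and 1 at 6 h, 8 and 3 at 24 h, then 10 and 7 at 72 h. All genes under this scaling are given above for the laminin chains, with 5243 higher and 4752 lower of 13329 at 72 h. The largest rises at 72 h were those of Fermt3, the kindlin of blood cells (2.103 ± 0.145 FPKM in sham and 30.2 ± 1.56 at 72 h, SD, n = 3, log2 fold change 3.33, limma adjusted p = 1.21e-08), and Parvg, the parvin of blood cells (0.463 ± 0.163 and 11.4 ± 1.00 FPKM, 3.09, adjusted p = 5.88e-08). Parvg passed the filter only through AMI mice, so that a difference was built into its being tested. The largest falls were those of Lims2, a partner of the kinase Ilk (44.9 ± 2.89 and 12.7 ± 2.67 FPKM, -1.76, limma adjusted p = 3.52e-06), and Itgb1bp2, the muscle protein melusin that binds the Itgb1 tail (57.2 ± 2.37 and 24.6 ± 4.53 FPKM, -1.20, adjusted p = 1.83e-05). Fermt2, the kindlin of non-blood cells, was higher at 6 h (0.54, SE 0.104, limma adjusted p = 0.01) and lower at 72 h (-0.29, SE 0.0784, adjusted p = 0.00908).

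Of 11 tested basement membrane partners of laminin, 2 were higher and 4 lower at 6 h, 3 and 3 at 24 h, then 5 and 3 at 72 h, beside the same shares of all genes as for the adaptors. After median-of-ratios scaling the counts were 2 and 1 at 6 h, 2 and 3 at 24 h, then 4 and 5 at 72 h. The scaled counts of all genes are those given for the laminin chains. Nid1, which links laminin to collagen IV, went from 108 ± 5.84 FPKM in sham to 233 ± 38.5 at 72 h (SD, n = 3, log2 fold change 1.09, limma adjusted p = 2.85e-05). Col4a1 was already higher at 6 h, at 157 ± 36.3 against 71.4 ± 11.7 FPKM (1.11, limma adjusted p = 0.0059). Bcam, a receptor of Lama5, fell from 98.3 ± 2.50 to 54.7 ± 3.61 FPKM at 72 h (-0.84, limma adjusted p = 6.56e-06), and Dag1, the dystroglycan that binds muscle laminin, from 147 ± 2.65 to 97.4 ± 7.03 FPKM (-0.59, limma adjusted p = 7.18e-05).

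Of 18 tested integrin ligands, 3 were higher and none lower at 1 h, followed by 6 and 3 at 6 h, 13 and 2 at 24 h, then 16 and 1 at 72 h, beside 0.669% and 0.0526% of all genes at 1 h and the shares given above at the later times. With median-of-ratios scaling these counts became 6 and 2 at 6 h, 10 and 3 at 24 h, then 13 and 2 at 72 h. The scaled counts of all genes are again those given for the laminin chains. The 3 called at 1 h were Cyr61 (log2 fold change 2.96, SE 0.167, limma adjusted p = 0.000127), Thbs1 (1.95, SE 0.147, adjusted p = 0.000653) and Ctgf (1.39, SE 0.12, adjusted p = 0.00143), at a time when no integrin subunit or laminin chain was called. Fn1, the fibronectin bound by the Itga5 receptor, had 14.3 ± 1.40 FPKM in sham and 517 ± 128 at 72 h (SD, n = 3, 5.06, limma adjusted p = 3.39e-08). Spp1, the osteopontin bound by Itgav receptors, had 0.0351 ± 0.0246 FPKM in sham and 312 ± 43.8 at 72 h (8.23, limma adjusted p = 3.98e-09). It passed the filter only through AMI mice, so that a difference was built into its being tested. Icam1, the ligand of the Itgb2 family, rose by 6 h, from 14.2 ± 2.17 to 57.2 ± 15.6 FPKM (1.91, limma adjusted p = 0.00112), and Vcam1, the ligand of Itga4, had 3.99 ± 0.343 FPKM in sham and 15.5 ± 2.11 at 72 h (1.72, limma adjusted p = 1.3e-06). Vtn, vitronectin, fell from 10.9 ± 0.271 FPKM in sham to 5.58 ± 0.500 at 6 h (-0.86, limma adjusted p = 0.00155) and 4.57 ± 0.474 at 72 h (-1.10, adjusted p = 4.1e-06), while its receptor subunits Itgav, Itgb3 and Itgb5 were higher at 72 h.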

How the data were processed

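RNA from the hearts of 18 mice was sequenced, with 3 mice in each of 6 groups. FPKM values per gene symbol were made and deposited by the authors, after trimming with cutadapt 1.18, alignment with HISAT2 2.1.0 to mm10 and quantification with StringTie 1.3.4d, as the submitters' processing notes and the study's methods name them. Those notes also name Cufflinks and Cuffdiff without a version, and the gene annotation is not given in the sources used here. Some column headers misspell the time point and were matched to samples through the titles, and 0 columns were left unused. Read counts were not analysed here, so no count test was run and the depth, and with it the counting error of a low value, is unknown.

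Genes with at least 1 FPKM in at least 1 mouse were kept, 13333 of 24419. For each comparison, log2(FPKM + 1) of its 6 mice was fitted with limma 3.58.1 in R 4.3.3 with an intensity trend, over all genes kept, with Benjamini-Hochberg adjustment of p-values across those genes. The labels number the replicates, and the study's text gives 18 mice in 6 groups, so each replicate was taken as a separate mouse. The p-values set a difference between groups against the spread between mice. The procedure was tested on simulated data. Members, gene lists and cell type markers were chosen with earlier results of these data known. Values in every mouse were given for the leukocyte integrins, for the 3 largest rises and falls among called members of each role group at 72 h, and for members called in opposite directions at 6 h and 72 h. Values for other members were chosen after they were seen. Alternatives were a pseudocount of 0.1, other filters, median-of-ratios or quantile scaling, 1 fit of all 18 mice, a replicate block, a ratio over 2 and leaving out each mouse. Gene positions came from GENCODE M21 (mm10) and promoter sequences from RefSeq (GRCm38.p6). Values of 1 tested member and 1 cell type marker are not reported here by name, while counts over the lists include them.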

Additional observations from a re-analysis of the deposited data

Results flagged for a closer look

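For 2 members the effects at 2 time points, each against the same sham mice, went in opposite directions and differed by the limma test of the later against the earlier time point. Itga7 exceeded sham at 24 h (by 1.18 on the log2 scale, adjusted p = 0.00205) and was lower at 72 h (-0.24, adjusted p = 0.0291), and the difference of 72 h minus 24 h was -1.43 (SE 0.142, limma adjusted p = 0.000308). Its 72 h value against sham was lost without any 1 of the sham mice, while the difference between time points was called without any 1 of its 6 mice (adjusted p up to 0.00235). Itga11 was lower than sham at 6 h (-0.45, adjusted p = 0.0347) and higher at 72 h (1.76, adjusted p = 4.08e-06), and the difference of 72 h minus 6 h was 2.22 (SE 0.13, limma adjusted p = 3.42e-06). Its 6 h value was lost without the first or the third sham mouse or without the first or second 6 h mouse, while the difference was called without any 1 of its 6 mice (adjusted p up to 5.21e-05).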

How the results depend on the processing

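Of 1382 values of called members under the alternatives, 1230 kept their direction and their side of the threshold, 150 kept their direction only and 2 turned. Under quantile normalization Itga2b at 72 h against sham was -0.11 (adjusted p = 0.183) and Itga8 at 72 h against 6 h was -0.0103 (adjusted p = 0.943). No alternative called a member at 10 min or 1 h. Members lower than sham at 72 h numbered 9 of 32 with median-of-ratios scaling, 11 with quantile normalization and 1 with a ratio over 2. A ratio over 2 left 3 lower at 24 h. Of all genes, 4752 of 13329 were lower at 72 h with median-of-ratios scaling and 5709 of 13328 with quantile normalization. Without such scaling 3226 of 13329 were lower. Both scalings added Itga1, Itga8, Lama2 and Lama3 to those lower at 72 h, and quantile normalization also added Itga3 and Itgb4. At 24 h against 6 h, median-of-ratios scaling and quantile normalization each left 2 higher, 1 fit of all 18 mice gave 11 higher and 2 lower, and having no filter left 0 lower. At 72 h against 24 h a ratio over 2 left 9 higher and 1 lower, and both quantile normalization and the fit of all 18 mice gave 5 lower, while at 72 h against 6 h a ratio over 2 left 1 lower. Of all genes, 3341 of 13329 were lower at 72 h than at 24 h with quantile normalization. Leaving out 1 mouse at a time gave 5 to 8 higher and 1 to 6 lower at 6 h, 1 to 6 lower at 24 h, 0 to 3 higher and 0 to 1 lower at 24 h against 6 h, and 2 to 6 lower at 72 h against 24 h. The causes were not tested. With the replicate number as a block, 0 members were higher and 0 lower at 24 h against 6 h. Same-numbered mice correlated between -0.327 and 0.415 in their deviations from the group means, so the numbers were not taken as pairs. Without read counts, precision at low FPKM cannot be given, and 3 mice per group limit every comparison.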
